A study of Mus musculus with 14 samples.

Results

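Homeobox genes encode transcription factors that share a DNA-binding homeodomain, and they were followed here through 7 mouse tissues in counts of short transcript tags. A gene was taken in when the tags assigned to it carried a UniGene cluster (a group of transcript sequences from 1 gene) whose title contained homeobox or homeo box. Only tags of class codes 1 to 4 were summed, which are read here as sense tags. This rule gave 98 of the 22221 genes in the table, of which 30 belong to the Hox clusters A to D and 68 do not. The Hox genes held 3687 counts on 66 distinct tags, and the other homeobox genes held 7315 counts on 151 tags. These are 0.0101% and 0.0201% of all counts assigned to genes.

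The series comprised 14 libraries from C57BL6 mice, 1 female and 1 male library for each of bone marrow, hippocampus, liver, pancreas, parotid gland, entire spinal cord and stomach. By their titles the liver samples are a right lobe (female) and a left lobe (male), although both library codes end in LL, so lobe and sex cannot be told apart there. Age, treatment and the number of animals behind a library are not stated, and p-values therefore measure only the spread between these libraries, which may be technical. Libraries held 1922511 to 3460794 counts assigned to genes, and levels are given in CPM, scaled to this total, with the mean ± SD of each tissue's 2 libraries.

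The Hox genes lie in 4 clusters, and their order along a cluster follows the order of their expression domains along the axis of the embryo, from the hindbrain towards the tail. Genes at the same place in different clusters are paralogs and carry the same number, with low numbers expressed furthest towards the head. In the nervous system they give motor neurons and interneurons of the spinal cord their position, and the forebrain forms without them. Other homeobox families specify cell types and organs, such as the LIM genes in neurons and the Barx, Irx and sine oculis genes (such as Six2) in epithelia and mesenchyme.

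Each tag is the 20 bases that begin with GATC, the site cut by DpnII, and per the labels comes from the site nearest the 3′ end of the transcript. The leading tags, those with the most counts, of the 16 Hox genes described one by one in spinal cord, stomach or bone marrow were as follows, with the DpnII site in capitals.
Hoxa2: GATCtacccctactctctca
Hoxa3: GATCgagaaaaagaaatcaa
Hoxa5: GATCagcttttttttttttt
Hoxa7: GATCaatactacctactact
Hoxa9: GATCattctgccaaaatact
Hoxb2: GATCgctgccttgctggacc
Hoxb4: GATCacagcctggatttttc
Hoxb5: GATCaaaatctggttccaga
Hoxb6: GATCaagatttggtttcaga
Hoxb8: GATCcactagcttctgcgtc
Hoxc4: GATCaataataaaccagtgg
Hoxc5: GATCagtgtgggagccatgc
Hoxc6: GATCcgttctcgaatattta
Hoxc8: GATCttttgggcccccggct
Hoxd8: GATCagcgctagatgattga
Hoxd9: GATCtgaacaaatggagccc
A single tag carried nearly all counts of some of these genes. It held 97.0% of the counts of Hoxc4, 99.5% of those of Hoxd8 and 100% of those of Hoxc6. Hoxa7 (70.0%) and Hoxa5 (62.2%) were spread over more tags. The leading tag of Hoxa5 ends in a run of 13 T, a low-complexity sequence, and results of this gene are given with that in view. The second tag of Hoxd9, GATCtgaacaaatggaaaaa, shares its first part with the leading one and had nearly as many counts, 55 against 58.

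Several Hox tags lie in a stretch of related sequence. The letters TGGTTNCA, searched as written and on the other strand, were chosen after the tags had been seen. As written they occurred in 9 of 217 homeobox tags (4.15%), of which 6 of 66 were Hox tags (9.09%), against 77 of 87272 tags of all genes (0.0882%). On the other strand 0 homeobox tags and 53 of all tags (0.0607%) held them. The tags of this kind of Hoxb5, Hoxc4 and Hoxb6 follow, with these letters in capitals.
Hoxb5: gatcaaaatcTGGTTCCAga
Hoxc4: gatcaaaatcTGGTTCCAaa
Hoxb6: gatcaagattTGGTTTCAga
Positions are counted from 1 at the first base of GATC. The tags of Hoxb5 and Hoxc4 differ by the single substitution G19A, so that 1 misread base would move a count between these genes. For that reason the 17 counts of Hoxc4 on this tag are uncertain in their gene. So are all 42 counts of Msx1 and 10 counts of Hoxa9, on tags that also lie 1 base from that of another member. The neighbours of these 2 tags were rarer, Prrx2 with 6 counts beside both and Nkx3-2 with 1 beside Msx1. The counts of these neighbours are uncertain as well. The leading tags of Hoxc4 and Hoxa9 hold neither these letters nor such a neighbour.

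Hox transcripts were concentrated in the spinal cord. The summed Hox level in spinal cord was 756.0 CPM (female library) and 749.7 CPM (male library), a mean of 753 ± 4.43 (SD, n = 2). Stomach followed with 107.9 and 61.4 CPM (84.6 ± 32.9) and bone marrow with 19.05 and 19.81 CPM (19.4 ± 0.53). The sum in spinal cord was 8.89 times that in stomach and 38.8 times that in bone marrow, and these 3 tissues did not overlap in their libraries. Hippocampus (6.55 ± 0.87 CPM), parotid (5.52 ± 0.46) and liver (4.68 ± 3.20) overlapped or lay within 2 CPM of each other, and pancreas was lowest at 1.10 ± 0.49 CPM. Scaled instead by TMM, edgeR's trimmed-mean factors, the sums were 308 in spinal cord, 66.0 in stomach and 13.3 in bone marrow, and below these the order changed, with parotid at 9.91, pancreas at 6.51, liver at 4.30 and hippocampus at 2.91. The TMM factors themselves differed up to 17.0-fold between libraries and were highest in spinal cord, so the order of tissues can turn with the scaling. In bulk tissue, fewer cells of a type and less RNA per cell cannot be told apart.

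**Figure D1:**
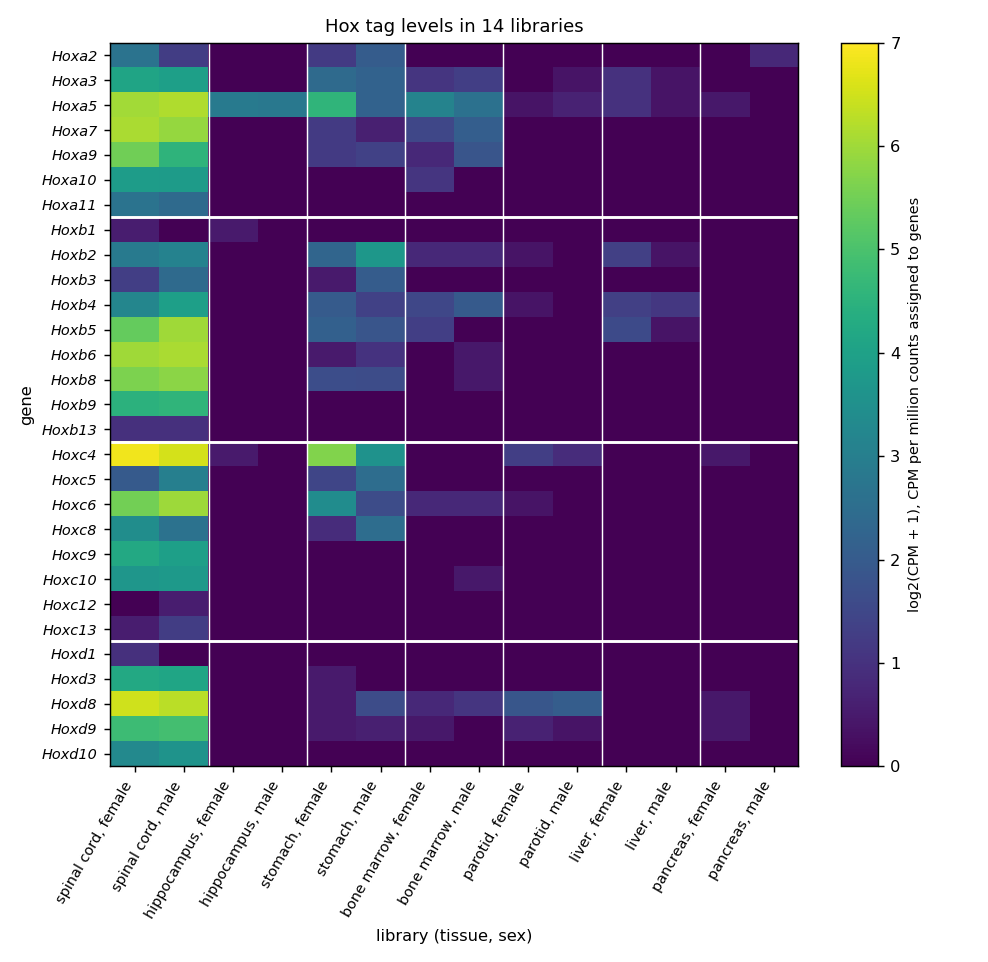
Level of 29 of the 30 Hox genes (rows, by cluster) in each of the 14 libraries (columns, by tissue and sex), in CPM on a colour scale of log2(CPM + 1). The spinal cord pair is filled for nearly all genes (24 of the 30 with at least 3 counts in both libraries), the stomach pair for 11, and the other tissues for few.

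Nearly every Hox gene was highest in spinal cord in CPM. This held for 29 of 30 Hox genes and for 23 of the 68 other homeobox genes, and the exception was Hoxb2, which was highest in stomach. On TMM-scaled levels it held for 26 Hox genes and 17 others. The other 4 Hox genes were Hoxb2, Hoxb3 and Hoxc5, then highest in stomach, and Hoxa2, then highest in pancreas. The same share over all genes was not counted, so these numbers are a description. They include genes with hardly a count, such as Hoxb1, with 1 count in spinal cord and 1 in hippocampus, and Hoxc12, with 1 count in all. In spinal cord 27 Hox genes had a count in both libraries and none lacked a count altogether. In hippocampus, the other part of the nervous system, 27 of the 30 had no count, and of the 17 female and 15 male Hox counts there 15 in each library were the T-run tag of Hoxa5. A count of 0 in hippocampus allows up to 1.26 CPM in the female and 1.19 CPM in the male library (3 counts, counting error only). Bone marrow had 9 Hox genes with a count in both libraries, liver 5, parotid 4, stomach 17 and pancreas 0. RefSeq (GRCm38.p6) lists 39 Hox genes, and the 9 not among the members were Hoxa4, Hoxa6, Hoxa13, Hoxb7, Hoxc11, Hoxd4, Hoxd11, Hoxd12 and Hoxd13. Of these, a cluster titled Homeo box A6 had 2 counts on a tag of code 14 only, and 1 titled Homeo box D11 had 8 counts of code 5 only. The cluster titled Hoxb8 carries an accession of Hoxb7 on some tags outside the rule, so its name is uncertain.

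All 4 clusters contributed in spinal cord, and, summed over the clusters, groups 4 to 9 more than the groups at either end. Cluster B stood at 213 ± 31.7 CPM, cluster A at 203 ± 24.2, cluster C at 199 ± 4.68 and cluster D at 138 ± 7.19 (SD, n = 2). By paralog group the summed level was 3.16 CPM in group 1, 10.4 in group 2 and 35.0 in group 3. It was 115 in group 4 (104 of it from Hoxc4, the member of cluster C nearest the head end), 124 in group 5, 119 in group 6, 63.3 in group 7 and 141 in group 8, then 99.4 in group 9 and 35.5 in group 10. The groups nearest the tail end were low, with 4.84 CPM in group 11, 0.24 in group 12 and 1.93 in group 13. These sums depend on how many genes of a group are members, and tags differ between genes in how well they are recovered. Groups 5 to 8 took 56.8% of the Hox counts in the female and 62.0% in the male spinal cord library. Groups 9 to 13 took 20.0% (exact binomial 95% interval 18.0 to 22.04) and 17.7% (15.9 to 19.7).

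**Figure D2:**
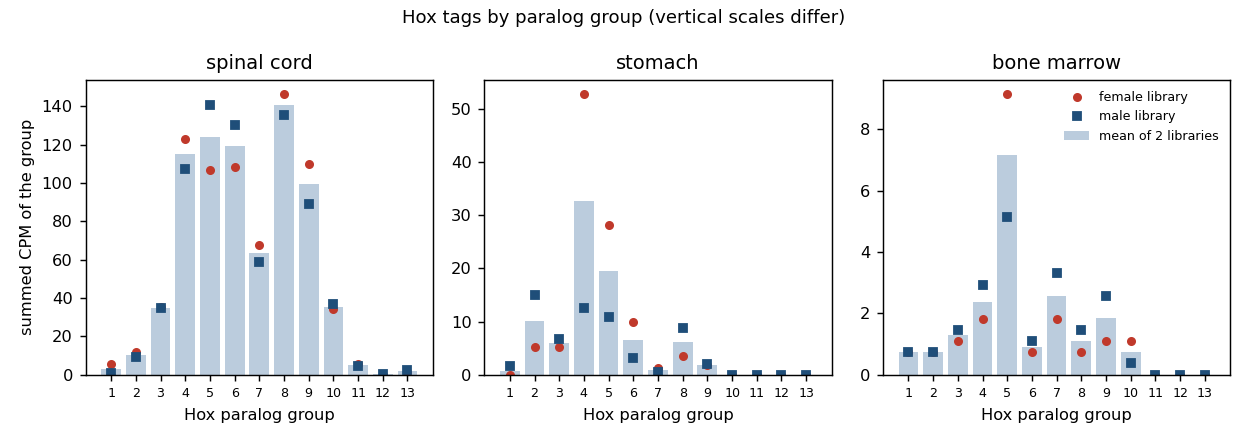
Summed CPM of the Hox genes of each paralog group (1 to 13, from the head end to the tail end of the clusters) in 3 tissues, each with its own vertical scale. Bars are the mean of 2 libraries, with circles for the female and squares for the male library, and spinal cord reaches 141 CPM in group 8 while groups 9 to 13 of stomach hold 4 counts in each library.

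Stomach Hox counts came almost wholly from groups 1 to 8. Groups 1 to 4 took 58.6% of the Hox counts in the female and 58.5% in the male stomach library, against 23.2% and 20.3% in spinal cord. Hoxc4 alone gave 115 of the 146 counts of groups 1 to 4 in the female and 21 of the 69 in the male stomach library. Groups 5 to 8 took 39.8% and 38.1%. Groups 9 to 13 held 4 of 249 Hox counts in the female library (1.61%, exact binomial 95% interval 0.439 to 4.06) and 4 of 118 in the male library (3.39%, 0.931 to 8.45). Neither stomach interval reaches those of spinal cord. In bone marrow groups 9 to 13 took 11.5% and 14.8% on few counts. The intervals cover counting error only.

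The 10 Hox genes with the highest mean level in spinal cord came from groups 4 to 9. Hoxc4 led with 115 CPM (female) and 92.8 CPM (male library; 104 ± 15.6, SD, n = 2). Hoxd8 had 88.9 and 76.5 CPM (82.7 ± 8.75), and Hoxa5 had 64.0 and 70.3 CPM (67.1 ± 4.46). These are genes of the cervical to thoracic cord. Hoxb6 stood at 63.5 and 68.4 CPM (65.9 ± 3.46), and Hoxa7 at 67.9 and 58.8 CPM (63.3 ± 6.41). Hoxc6, a determinant of limb-innervating motor neurons, stood at 44.9 and 61.7 CPM (53.3 ± 11.8). From Hoxa5 down to Hoxb8, the libraries of neighbouring genes in this order overlapped. Hoxb5 had 40.0 and 63.1 CPM (51.6 ± 16.3) and Hoxb8 47.9 and 53.6 CPM (50.7 ± 4.02). Hoxa9, at 44.0 and 22.5 CPM (33.2 ± 15.2), had the largest ratio between the 2 libraries among these 10, and Hoxd9 stood at 26.9 and 29.2 CPM (28.0 ± 1.63). The paralogs Hoxa9, Hoxb9 and Hoxd9 thus lay close to each other, Hoxb9 at 22.2 ± 1.03 CPM, while their paralog Hoxc9, given below, was lower.

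Outside spinal cord 3 of these 10 genes were counted in number. Hoxc4 had 115 and 21 counts in stomach, and Hoxc6 22 and 4. Hoxa5 had 53 and 7 counts in stomach, 21 and 14 in bone marrow and 15 and 15 in hippocampus. The other 7 had at most 11 counts in any library. Hoxb6 had 1 count in bone marrow and 3 in stomach, and none in the other 4 tissues. Hoxc4 was at 0 in bone marrow and liver, and Hoxd8 at 0 in hippocampus and liver. Parotid had 9 and 11 counts of Hoxd8, 2.63 and 3.18 CPM. Hoxb8 had 1 count in bone marrow and 5 and 4 counts in stomach, and Hoxd9 had at most 2 counts in any library outside spinal cord.

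The remaining Hox genes of spinal cord lay between 0.24 and 22.2 CPM. Hoxd3 (16.9 ± 0.94 CPM), Hoxc9 (15.96 ± 2.29) and Hoxa3 (15.2 ± 1.25) were followed by Hoxa10 (13.5 ± 0.20), Hoxc10 (12.1 ± 0.50) and Hoxb4 (11.3 ± 4.27). Group 10 genes mark the lumbar cord. Hoxd10 stood at 9.89 ± 1.56 CPM, Hoxc8 at 7.51 ± 3.19, Hoxb2 at 7.00 ± 0.92, Hoxc5 at 5.05 ± 3.00 and Hoxa11 at 4.84 ± 0.76. The 8 Hox genes too low for the test had 1 to 25 counts in all libraries together. Among these Hoxb13 had 2 counts in each spinal cord library and Hoxc13 had 1 and 3. Hoxc12 (1 count), Hoxb1 (2) and Hoxd1 (2) are no more than detected.

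Every tissue was compared with the mean of the log2 levels of the other 6 by edgeR's quasi-likelihood test, and a gene was called when its Benjamini-Hochberg adjusted p over all 14682 genes tested was under 0.05 and its fold at least 2. Of the members, 22 Hox and 29 other homeobox genes had enough counts to be tested. All 22 tested Hox genes were higher in spinal cord, where 27.3% of all genes tested were called higher and 8.68% lower, but 19 of the 22 reached the filter's minimum only through spinal cord, so that this count is a description and not support. Their median difference was 6.66 on the log2 scale, against 0.25 over all genes tested. Hoxb6 was higher by 8.45 ± 0.52 (log2, approximate SE; adjusted p = 7.5e-09) and Hoxd8 by 6.32 ± 0.40 (adjusted p = 1.8e-09). Over the alternative settings these differences ran from 6.49 to 9.40 and from 5.58 to 7.89, wider than the SE. Hoxb6 had no count in hippocampus, liver, pancreas and parotid. Here and below, the SE of a log2 difference is its size divided by the square root of the test's F statistic. It was not estimated by the fit itself. At the other end Hoxb2 was higher by 3.16 ± 0.77 (adjusted p = 0.00336). Fitted differences of genes at 0 in other tissues depend on the prior count, so a lower bound is given instead for genes without a count in the tissues compared, each of their libraries being taken at 3 counts and the resulting CPM averaged. By it Hoxb9 was at least 19.2-fold higher in spinal cord than the mean of the 12 other libraries, Hoxc9 at least 13.8-fold, Hoxd10 at least 8.56-fold and Hoxa11 at least 4.19-fold. All such bounds, here and below, hold on the CPM scale only. On the TMM scale of the test, on which they were not computed, bounds of genes higher in spinal cord would be smaller. TMM factors were highest in spinal cord and lowest in pancreas. Without the male spinal cord library Hoxb2 (adjusted p = 0.0621) and Hoxc5 (0.0547) were not called, and Hoxa11 was not tested without either spinal cord library. DESeq2's Wald test called 13 of the 22.

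In CPM both spinal cord libraries lay above all 12 others for 22 of the 30 Hox genes and for 14 of the 68 other homeobox genes, with no filter, against 13.6% of all 22221 genes. Among the tested genes this held for 20 of 22 Hox genes and 7 of 29 others, and for 16.6% of all genes tested. Since 19 of the 22 Hox genes were tested only through their level in spinal cord, the counts over tested Hox genes in this and the next paragraph are descriptions, and nothing is read from their distance to the shares of all genes. The exceptions among tested Hox genes were Hoxc5 and Hoxb2, whose spinal cord and stomach libraries overlapped. Taken against each tissue alone, 22 Hox genes were higher than in hippocampus (3.13% of all genes) and 22 than in parotid (22.7%). There were 21 higher than in bone marrow (30.6%), 20 than in liver (28.7%), 16 than in stomach (22.3%) and 12 than in pancreas (16.5%). In all 6 of these comparisons 10 Hox genes were called, Hoxa5, Hoxa7, Hoxa9, Hoxb5, Hoxb6, Hoxb8, Hoxb9, Hoxc6, Hoxd8 and Hoxd9, beside 0.851% of all genes. These comparisons share the spinal cord libraries. The count of 10 became 4 or 6 when the female or the male pancreas library was left out, 5 without the male spinal cord library, 6 in DESeq2, and 19 when libraries were scaled by their totals instead of TMM.

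Between spinal cord and hippocampus, the 2 parts of the nervous system, 3.13% of all genes were called higher and 3.26% lower in spinal cord. All 22 tested Hox genes were higher. Hoxd8, at 0 counts in hippocampus, was at least 67.5-fold higher in spinal cord (adjusted p = 1.1e-05). Hoxb6 was at least 53.8-fold (adjusted p = 3.9e-05) and Hoxa7 at least 51.7-fold higher (adjusted p = 4.1e-05), and the bounds were 43.5 for Hoxc6, 42.1 for Hoxb5, 41.4 for Hoxb8, 27.1 for Hoxa9 and 22.9 for Hoxd9. Hoxc4 had 1 count in hippocampus, and its fitted difference was 8.51 ± 0.80 on the log2 scale (adjusted p = 1.7e-05). Hoxa5 differed least, by 3.37 ± 0.56 (adjusted p = 0.001). All of its hippocampal counts came from the T-run tag, and its second tag, GATCtgcttctgttcatctc, had 53 and 68 counts in spinal cord and 0 and 0 in hippocampus. The count of 22 was 13 without either hippocampus library, 10 without the male spinal cord library, 13 in DESeq2 and 13 with tags of code 1 only. Over all homeobox genes the 29 calls became 17 without the female spinal cord library. The 10 Hox genes called without each of the 14 libraries in turn were Hoxa3, Hoxa7, Hoxa9, Hoxb5, Hoxb6, Hoxb8, Hoxc4, Hoxc6, Hoxd8 and Hoxd9.

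The other homeobox genes split in both directions between these tissues. Spinal cord was higher for 3 of 29, genes of dorsal interneurons among them. Of these, Tlx3 and Lhx5 reached the filter's minimum only through spinal cord. Tlx3, a determinant of excitatory sensory interneurons, had 18 and 11 counts in spinal cord (8.79 and 5.26 CPM) and none elsewhere, at least 5.73-fold above hippocampus (adjusted p = 0.0157). Lhx5 stood at 4.40 and 4.78 CPM (at least 3.75-fold, adjusted p = 0.0284) and Irx2 at 3.42 and 2.39 CPM (at least 2.37-fold, adjusted p = 0.0376). All 3 calls were lost without either hippocampus library.

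Hippocampus was higher for 4 of 29, LIM and Dlx genes that specify forebrain neurons among them. Lhx2, needed for the cortex and hippocampus to form, stood at 37.9 and 44.7 CPM against 1 count in each spinal cord library, a log2 difference of −6.28 ± 0.73 for spinal cord (adjusted p = 0.00012). The interneuron genes Dlx1 (16.9 and 14.6 CPM) and Lhx6 (11.4 and 11.5 CPM) had no count in spinal cord and were at least 10.9-fold and 7.88-fold lower there (adjusted p = 0.00183 and 0.00209). Sebox had 5.06 and 9.10 CPM against 1 count (−4.50 ± 1.08, adjusted p = 0.0213). Of these 4, Lhx2 kept its call without each library in turn and the other 3 did not. Without either hippocampus or the male spinal cord library Sebox lay at adjusted p = 0.171, 0.548 and 0.49.

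**Figure D3:**
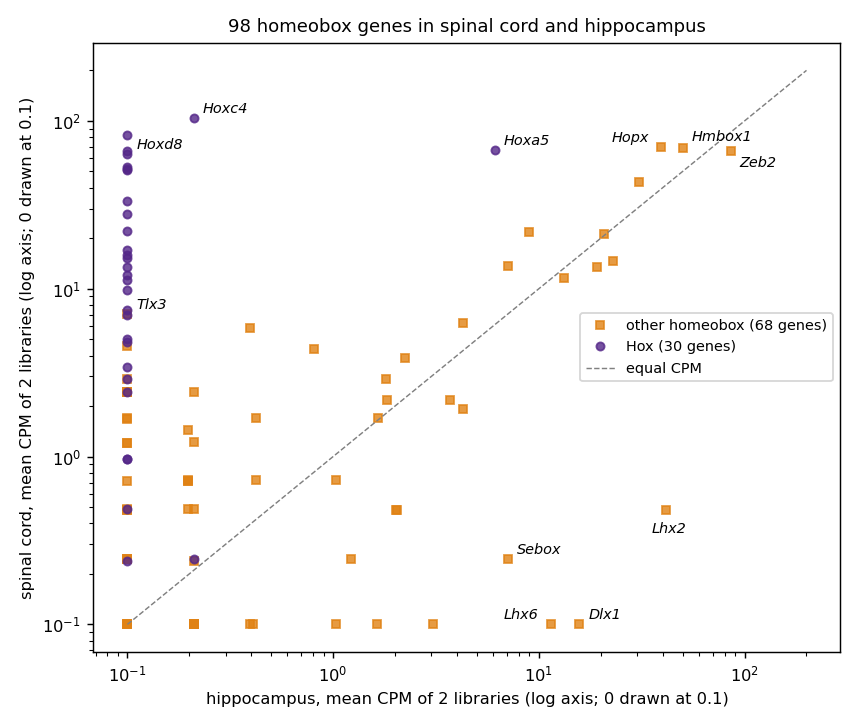
Mean CPM of 2 libraries in spinal cord (vertical) against hippocampus (horizontal) for 30 Hox and 68 other homeobox genes, on log axes with 0 drawn at 0.1; the dashed line marks equal CPM. The 27 Hox genes without a hippocampal count stand at the left edge, Lhx2, Dlx1 and Lhx6 lie far below the line, and Hmbox1, Hopx, Zeb2 and Zeb1 lie near it.

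RNA of other tissues was measurable in the spinal cord libraries. Each tissue's own list of 6 or 7 marker genes was highest in that tissue. In spinal cord the bone marrow list summed to 7243 and 7550 CPM with none of its 7 genes at 0, against 853 and 822 in hippocampus. Skeletal muscle markers summed to 316 and 611 CPM (68.7 and 48.6 in hippocampus, 3 of 8 genes at 0 there) and dorsal root ganglion markers to 80.6 and 97.5 CPM (0.84 and 2.37 in hippocampus, 4 of 7 at 0). Bone marrow itself held 19.4 CPM of Hox transcripts at 381952 CPM of its own markers, and parotid, with 252 and 333 CPM of muscle markers, held 5.52 CPM of Hox transcripts. For dorsal root ganglia and for skeletal muscle no library of their own is among the 14. The part of marrow, muscle or ganglion RNA in the Hox levels of spinal cord was not tested.

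Some genes linked to Hox function were examined beside them, described by counts only, and named here when called. Of 11 genes of the TALE class, among them cofactors whose products bind DNA together with Hox proteins, 9 were tested. Against the mean of the other tissues Pbx3 (1.65 ± 0.29, adjusted p = 0.00013) and Pknox2 were higher in spinal cord and Tgif1 was lower (−2.35 ± 0.42, adjusted p = 0.0002). With 2 higher and 1 lower of 9, the shares were near the 27.3% and 8.68% of all genes. Against hippocampus Pbx3 was higher by 1.96 ± 0.40 (42.5 ± 3.37 against 9.96 ± 1.57 CPM, adjusted p = 0.0051), as was Meis1 (2.44 ± 0.67, adjusted p = 0.0363), beside 3.13% of all genes. The median difference of the 9 was 0.61 against the other tissues (0.25 over all genes) and 0.84 against hippocampus (0.04). Of 16 Polycomb genes, which hold Hox genes silent, edgeR, DESeq2 and limma voom called 0 in either comparison. Over all genes edgeR called 27.3% higher and 8.68% lower than in the other tissues, and 3.13% and 3.26% against hippocampus. Against the other tissues Eed (−0.94, adjusted p = 0.0161) and Phc1 (0.91, adjusted p = 0.0225) passed the adjusted p in edgeR but not the minimum fold. These were the 2 with an unadjusted p under 0.05 there, and against hippocampus there were 0. Of 7 tested Trithorax genes, which keep Hox genes active, 2 were higher than in the other tissues, Psip1 and Rbbp5, a share near the 27.3% of all genes. Against hippocampus edgeR, DESeq2 and voom called 0 of these 7, with 0 at an unadjusted p under 0.05.

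Retinoic acid, made and sensed by the genes of a further list, sets the head-side limits of Hox expression. Of 13 tested genes 3 were higher in spinal cord than in the other tissues, Stra6, Rarb and Crabp1, also a share near that of all genes, and against hippocampus the synthesizing enzyme Aldh1a1 was higher (203 against 41.3 CPM, 2.18 ± 0.37, adjusted p = 0.00102). A last list held POU and PAX genes, homeodomain factors whose titles do not name a homeobox. Of these, 7 of 9 tested were higher in spinal cord than in the other tissues, beside 27.3% of all genes, and DESeq2 called 2 of them. Some of the 7, Pax2 and Pou4f1 among them, reached the filter's minimum only through spinal cord, so this count is a description and not support. In hippocampus 5 of the 9 were likewise called higher than in the mean of the other tissues, beside 28.0% of all genes. Against hippocampus, where neither had a count, Pax2, a gene of inhibitory interneurons, was at least 3.55-fold higher (3.91 and 4.78 CPM, adjusted p = 0.0397). Pou4f1, a gene of sensory neurons, was at least 11.6-fold higher (7.81 and 20.6 CPM, adjusted p = 0.00439). DESeq2 called 0 of the 9 in this comparison, in which edgeR called 3.13% of all genes higher. Pou4f1 also stands on the list of dorsal root ganglion markers.

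Against the mean of the other 6 tissues, 11 of the 29 other homeobox genes were higher in spinal cord, beside 27.3% of all genes. Of the 29, 24 reached the filter's minimum without spinal cord, but Lhx1, Lhx5, Tlx3 and Zfhx2, called here, did not. Dlx1 passed only through hippocampus and Barx1 only through stomach. Counts of other homeobox genes called higher in a tissue, here and below, are therefore descriptions and not support. Hmbox1 (71.3 and 66.0 CPM; 1.56 ± 0.29, adjusted p = 0.00024), a telomere-binding protein, and Hopx (67.9 and 71.2 CPM; 1.08 ± 0.30, adjusted p = 0.00783), a small protein with a homeodomain that does not bind DNA, had the highest levels. The zinc finger repressors Zeb2 (80.6 and 52.6 CPM; 1.502 ± 0.33, adjusted p = 0.00124) and Zeb1 (48.3 and 38.7 CPM; 2.91 ± 0.53, adjusted p = 0.00027) followed. Mkx, a tendon regulator, stood at 19.5 and 23.0 CPM and the cofactor Pknox2 at 14.2 and 15.3 CPM. Tlx3, in CPM at least 6.08-fold above the mean of the 12 other libraries at 3 counts each, Lhx1, Lhx5, Prox1 and Zfhx2 were the remaining ones. Hopx (adjusted p = 0.0541 and 0.183) was not called without the female or the male spinal cord library, Zeb2 (0.077) and Lhx1 (0.0536) were not called without the female one, and Tlx3 was then not tested. None was lower in edgeR, with 0 at an unadjusted p under 0.05 and 0 in DESeq2, while limma voom called 8 lower.

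Low but repeated counts marked further spinal cord genes that were not tested. Uncx had 7 and 3 counts, Skor1 4 and 6, Lbx1 3 and 4, and Mnx1, a motor neuron gene, 2 and 5. Skor1 and Hopx were taken in by their titles alone. A locus without a symbol, titled as similar to a rat Hox-D8, had 4 and 6 counts in spinal cord and was counted with the other homeobox genes.

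In hippocampus the called homeobox genes lay outside the Hox clusters. Of the 29 tested others, 12 were higher than in the mean of the other tissues, against 28.0% of all genes, and 1 was lower, against 12.9%. Lhx2 led by fold (7.44 ± 0.54, adjusted p = 3e-08). Zeb2 was most abundant at 91.0 and 80.3 CPM (2.08 ± 0.32, adjusted p = 2.5e-05). Pknox2 stood at 23.2 and 22.5 CPM (3.70 ± 0.47, adjusted p = 4.6e-06), Zeb1 at 28.2 and 33.2 CPM, Mkx at 27.4 and 14.2 CPM and Hmbox1 at 51.8 and 48.3 CPM. Zeb1, Zeb2, Mkx, Pknox2 and Hmbox1 were thus called in both nervous tissues, as were Prox1 and Zfhx2. Dlx1, Lhx6, Sebox, Prox1 of the granule neurons, Zfhx2 and Msx1 completed the list. The call of Msx1 (adjusted p = 0.0428) was lost without 11 of the 14 libraries, and that of Hmbox1 without the male hippocampus library (0.0656). Hlx, a mesenchymal gene, was lower (−2.81 ± 0.92, adjusted p = 0.0181) but not without the male hippocampus (0.275) or the female pancreas library (adjusted p = 1). Dlx2, a gene of forebrain interneurons, had 4 and 4 counts. Of the 22 tested Hox genes edgeR called 0 in either direction, with 0 at an unadjusted p under 0.05. DESeq2 called 10 and limma voom 21 of them lower.

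**Figure D4:**
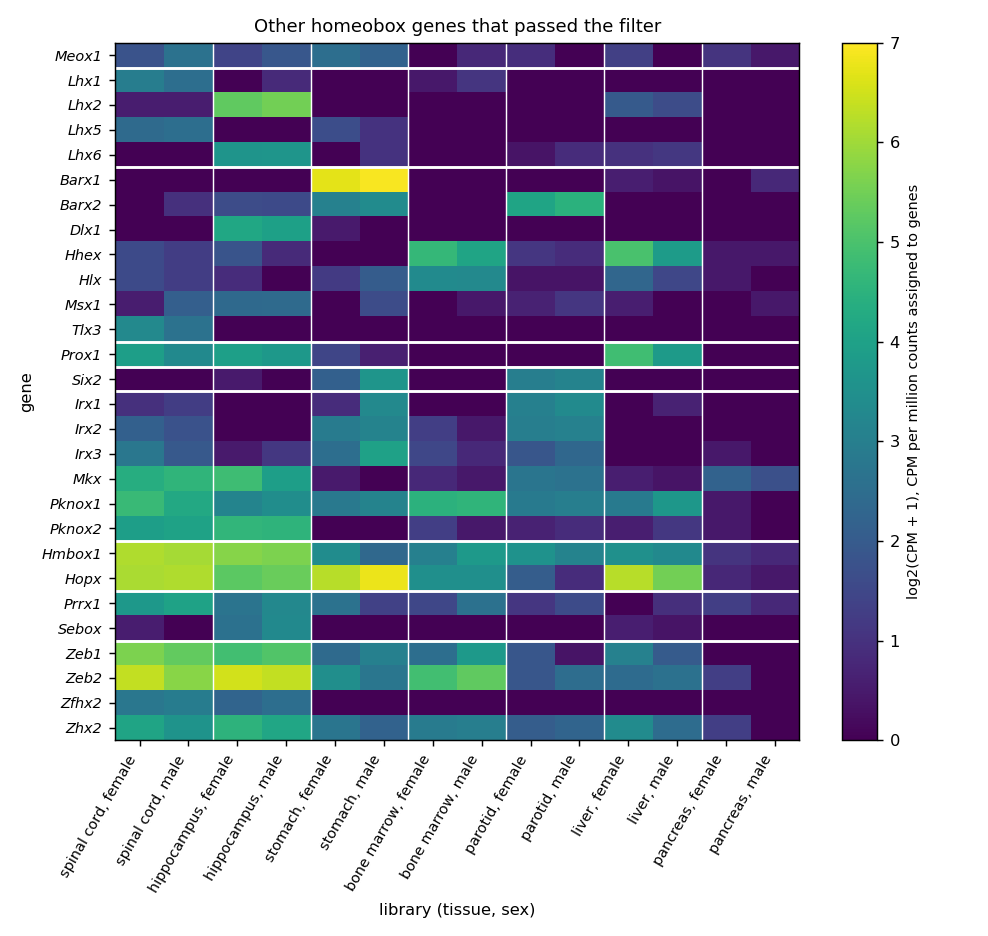
Level of 28 of the 29 tested homeobox genes outside the Hox clusters (rows) in the 14 libraries (columns, by tissue and sex), in CPM on a colour scale of log2(CPM + 1). Barx1 is filled in stomach alone, Lhx2 and Dlx1 in hippocampus, Barx2 in parotid and stomach, Hhex in liver and bone marrow, and the pancreas pair is nearly empty.

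Stomach was the second Hox tissue, and its 2 libraries differed. Mean levels of at least 2 CPM were reached by 11 Hox genes. Hoxc4 had 49.8 CPM (female library) and 10.9 CPM (male library; 30.4 ± 27.5, SD, n = 2; 115 and 21 counts). Hoxa5 had 23.0 and 3.64 CPM (13.3 ± 13.7), and Hoxc6 9.53 and 2.08 CPM (5.81 ± 5.27). These 3 were several times higher in the female library. Hoxb2 ran the other way with 3.90 and 11.96 CPM (7.93 ± 5.70), as did Hoxc5 with 1.73 and 4.68 CPM, Hoxc8 with 0.867 and 4.68 CPM and Hoxa2 with 1.30 and 3.12 CPM. Hoxa3 (4.33 and 3.64 CPM), Hoxb5 (3.47 and 2.60) and Hoxb8 (2.17 and 2.08) differed little. Hoxb4 (3.03 and 1.56 CPM) was higher in the female library on only 7 and 3 counts. With 1 library per sex the difference between the stomach libraries cannot be told apart from sex.

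Against the mean of the other tissues 9 of 22 tested Hox genes were higher in stomach, beside 17.9% of all genes, and 3.92% of all genes were lower. Hoxc4 was higher by 5.34 ± 0.50 (adjusted p = 3.3e-07), Hoxb2 by 4.32 ± 0.73 (0.00025), Hoxc5 by 5.01 ± 0.99 (adjusted p = 0.00185) and Hoxa3 by 3.19 ± 0.76 (adjusted p = 0.00503). Hoxb8 was higher by 3.58 ± 0.95 (adjusted p = 0.0128). These 5 kept their call without each library in turn. Hoxa5 (2.01, adjusted p = 0.00562) fell to 0.21 (adjusted p = 0.947) and Hoxc6 (4.19, adjusted p = 0.00142) to 2.50 (adjusted p = 0.0647) without the female stomach library. Hoxc8 (4.65, adjusted p = 0.00876) lay at adjusted p = 0.193 without the male one. Hoxb5 (3.01, adjusted p = 0.0382) was lost without any of the pancreas or parotid libraries, at adjusted p = 0.0515 to 0.0678. No Hox gene was lower in edgeR or DESeq2, with 0 at an unadjusted p under 0.05, and limma voom called 4 lower. Spinal cord was not called above stomach for Hoxc4, Hoxb2, Hoxb4, Hoxa3, Hoxc5 and Hoxc8, and for Hoxb2 stomach had the higher mean.

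**Figure D5:**
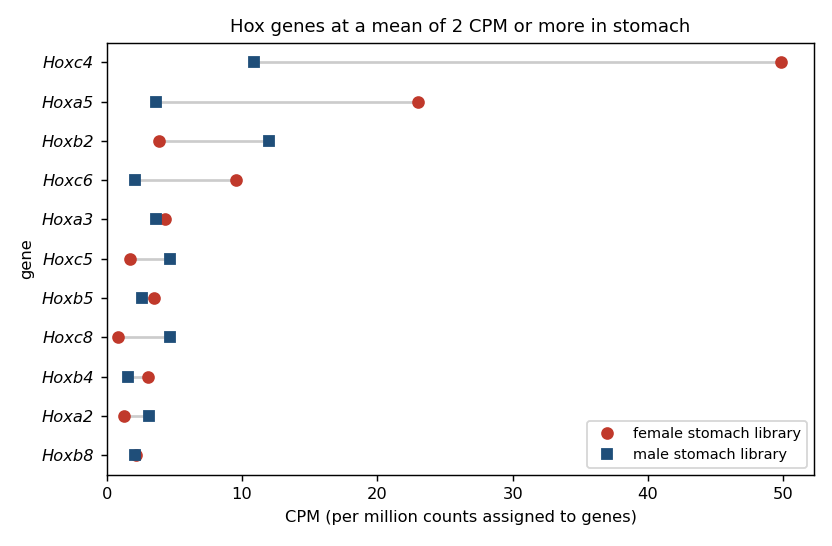
CPM of the 11 Hox genes with a mean of at least 2 CPM in stomach, on a linear axis, with a circle for the female and a square for the male library joined by a line. The female library is higher for Hoxc4, Hoxa5 and Hoxc6 and the male one for Hoxb2, Hoxc5, Hoxc8 and Hoxa2.

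Makeup differed between the stomach libraries as well. Gastric gland markers summed to 90923 CPM (female) and 243150 CPM (male), smooth muscle markers to 10429 and 7263 CPM, squamous epithelium markers to 5003 and 4661 CPM, skeletal muscle markers to 14.3 and 222 CPM, and dorsal root ganglion markers, which neurons of the gut wall share in part, to 57.2 and 73.3 CPM. None of the 6 gastric and 7 smooth muscle markers was at 0. The part of these differences in the Hox levels was not tested.

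Of the 29 other homeobox genes 8 were higher in stomach, beside 17.9% of all genes, and 1 of these, Barx1, was called higher in no other tissue. Barx1, which the stomach mesenchyme needs to form, stood at 104 and 121 CPM (113 ± 11.5; 241 and 232 counts), with 4 counts in all other libraries together (9.57 ± 0.42, adjusted p = 1.8e-10). Its leading tag, GATCagctgatacctggcct, held 99.2% of its counts. Hopx stood at 75.4 and 110 CPM (2.61 ± 0.28, adjusted p = 6.6e-07). Barx2 (7.37 and 9.36 CPM; 4.55 ± 0.67), Six2 (3.47 and 11.4 CPM; 5.41 ± 0.81), Irx2 (6.50 and 7.80 CPM; 4.24 ± 0.70) and Irx3 (4.77 and 15.1 CPM; 3.27 ± 0.60) had adjusted p of 8.3e-05, 0.00013, 0.00026 and 0.00051. Irx1 and Lhx5 were called too, but Irx1 not without the male (adjusted p = 0.34) and Lhx5 not without the female stomach library (0.128). Lower were Hhex (at least 5.47-fold, adjusted p = 0.0008) and Pknox2 (at least 4.69-fold, adjusted p = 0.0109), both without a count in stomach, Mkx (−4.06 ± 0.89, adjusted p = 0.00207) and Hmbox1. The call of Pknox2 was lost without the female pancreas library (adjusted p = 1).

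Bone marrow carried a few Hox genes at low level. Hoxa5 had 7.69 and 5.13 CPM (21 and 14 counts), Hoxa7 1.83 and 3.30 CPM and Hoxb4, a gene of blood stem cells, 1.83 and 2.93 CPM. Against the mean of the other tissues Hoxa7 (3.24 ± 0.86, adjusted p = 0.00791) and Hoxa9 (0.733 and 2.57 CPM; 2.70 ± 1.01, adjusted p = 0.0486) were higher, beside 19.6% of all genes. Because this test weights the log2 levels of the tissues equally, it compares marrow mainly with the tissues at 0, and both genes were far lower than in spinal cord. Of 25 alternatives, 24 kept the call of Hoxa7 and only 12 that of Hoxa9. Neither call held without the male bone marrow library (adjusted p = 0.0906 and 0.424), and the 8 calls of homeobox genes in marrow then became 5. None of the 22 Hox genes was lower in edgeR, with 0 at an unadjusted p under 0.05, while DESeq2 called 1 and limma voom 11 lower.

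Among the others, 4 were higher and 2 lower in bone marrow (14.3% of all genes lower). Hhex, needed for early blood formation, stood at 24.2 and 16.1 CPM (3.66 ± 0.38, adjusted p = 5.6e-07). Hlx stood at 9.16 and 8.80 CPM (2.82 ± 0.50, adjusted p = 0.00017) and Pknox1 at 21.6 and 23.1 CPM (1.504 ± 0.35, adjusted p = 0.00223). Zeb2 (28.6 and 38.1 CPM; 1.23 ± 0.34, adjusted p = 0.00789) was not called without the male library (adjusted p = 0.235). Mkx (−2.98 ± 0.78, adjusted p = 0.00489) and Hopx (−1.27 ± 0.38, adjusted p = 0.0121) were lower, with adjusted p = 1 for Mkx without the female stomach library and 0.142 and 0.115 for Hopx without either marrow library.

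Liver had 14 and 8 Hox counts, with Hoxb4 (1.49 and 1.21 CPM) and Hoxb5 (1.98 and 0.302 CPM) highest. Higher among the others were 4 genes, beside 18.5% of all genes. Prox1, which hepatoblasts need to migrate, stood at 20.4 ± 10.5 CPM (56 and 43 counts; 5.79 ± 0.53, adjusted p = 2.1e-07). Hhex, required for the liver bud, stood at 30.8 and 13.3 CPM (4.29 ± 0.37, adjusted p = 3.7e-08), Hopx at 74.4 and 44.4 CPM (2.22 ± 0.29, adjusted p = 4.5e-06) and Lhx2, a gene of stellate cells, at 2.98 and 2.12 CPM (4.06 ± 0.87, adjusted p = 0.00201). All 4 kept their call without each library in turn. Lower, beside 10.1% of all genes, were Hoxa5 (−2.66 ± 0.93, adjusted p = 0.0361), Irx3 (no count, at least 2.77-fold, adjusted p = 0.0201), Mkx (−2.97 ± 0.85, adjusted p = 0.0106), Prrx1 (−2.66 ± 0.84, adjusted p = 0.0202) and Zeb2. None of these 5 held without the female liver library (adjusted p = 0.0855 to 0.317), and the 9 calls in liver became 4 without the female and 5 without the male library. Without the male one the adjusted p was 0.183 for Hoxa5, 0.181 for Irx3, 0.0842 for Mkx and 0.0768 for Zeb2. No Hox gene was higher in edgeR, DESeq2 or limma voom, with 0 at an unadjusted p under 0.05.

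Parotid was marked by sine oculis, Irx and Barx genes. Of 29 others, 7 were higher, beside 11.1% of all genes, and Hopx was lower, beside 3.87%. Barx2, a gene of branching glands, stood at 16.1 and 21.1 CPM (7.31 ± 0.49, adjusted p = 2.2e-08). Irx1 (7.31 and 9.25 CPM; 6.44 ± 0.67), Six2 (7.02 and 7.80 CPM; 6.97 ± 0.71) and Irx2 (7.02 and 7.51 CPM; 5.69 ± 0.61) had adjusted p of 3.7e-06, 4.7e-06 and 5.2e-06. Barx2, Six2, Irx1, Irx2 and Irx3 were thus called in both parotid and stomach. Mkx stood at 5.55 and 5.20 CPM (2.32 ± 0.43, adjusted p = 0.00077). Skeletal muscle markers stood at 252 and 333 CPM in parotid with none of 8 at 0, and their part in the levels of Mkx and Six2 was not tested. Hopx (3.22 and 0.867 CPM; −2.37 ± 0.46, adjusted p = 0.00107) and Irx3 were not called without the male parotid library (adjusted p = 0.0825 and 0.143). Hoxd8, described above with 9 and 11 counts, was the 1 Hox gene higher in parotid (3.18 ± 0.60, adjusted p = 0.00129). None was lower in edgeR or DESeq2, where 9 of the 22 had no adjusted p, with 1 at an unadjusted p under 0.05 in edgeR, and limma voom called 8 lower.

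Pancreas held 4 and 2 Hox counts and was nearly empty of homeobox transcripts on the CPM scale. Its other homeobox genes summed to 14.8 and 6.79 CPM, against 443 and 397 CPM in spinal cord and 417 and 405 CPM in hippocampus. Under TMM, the scaling of the tests, the gap was far smaller, with 63.5 in pancreas, 172 in spinal cord and 183 in hippocampus, and stomach (239) and parotid (186) stood above both nervous tissues. Against the mean of the other tissues Mkx (3.62 and 2.26 CPM; 3.32 ± 0.55, adjusted p = 0.00041) was called higher, beside 6.33% of all genes, and Hopx (2 and 1 counts; −2.52 ± 0.65, adjusted p = 0.0171) lower, beside 3.24%. With library totals the difference of Mkx was 0.32 (adjusted p = 0.636), of the same direction but not called. Its CPM in spinal cord and hippocampus was higher than in pancreas, so its size and call depend on the scaling. Over all genes the median difference was −0.59 in pancreas and 0.25 in spinal cord under TMM, and −3.26 and 1.69 with library totals. The latter scaling also moved it from 0.15 to 1.46 in hippocampus, from −0.19 to 0.37 in bone marrow, from 0.17 to 0.53 in stomach and from −0.02 to −1.03 in parotid. The homeobox genes called then split into 0 higher and 8 lower in pancreas (1 and 1 under TMM), 8 higher and 1 lower in bone marrow (6 and 2) and 8 higher and 3 lower in parotid (8 and 1). Hopx was not called without either pancreas library (adjusted p = 0.181 and 0.188). Of the Hox genes edgeR and DESeq2 called 0 in either direction, with 0 at an unadjusted p under 0.05 in edgeR, while limma voom called 11 higher. In DESeq2 15 of the 22 had no adjusted p here. The 2 calls became 5 without the female and 4 without the male stomach library.

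Pancreas was also set against stomach, the other foregut organ measured beside liver. Higher in pancreas was Mkx (6.33 ± 0.92, adjusted p = 0.00011), beside 3.91% of all genes. Lower, beside 7.74%, were Hopx (−4.40 ± 0.65, adjusted p = 0.00013), Barx1 (−5.24 ± 0.76, adjusted p = 0.00031) and Hoxc4 (−4.32 ± 1.07, adjusted p = 0.0136). The call of Hoxc4 was lost without either pancreas library (adjusted p = 0.196 and 0.0964). The 4 calls became 9 without the female and 7 without the male stomach library and 29 with library totals (1 higher and 28 lower, against 1 and 3), under which the median of all genes was −3.32 in place of −0.54. No Hox gene was higher in edgeR or DESeq2, with 0 at an unadjusted p under 0.05, and limma voom called 8. In DESeq2 14 of the 22 had no adjusted p in this comparison.

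Across the 7 tissues 2 members had a count in every library. Hmbox1 had 734 counts in all and 0.754 CPM in its lowest library, and Hopx had 1235 counts and 0.377 CPM in its lowest, both lows in male pancreas. Every other member was at 0 in at least 1 library. Mkx was called higher in 4 tissues and lower in 3, Hopx higher in 3 and lower in 3, and Zeb2 higher in 3 and lower in 1.

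Female and male libraries were compared over the 7 tissue pairs. Of all genes 0.0477% were higher and 0.0136% lower in males, and no homeobox gene was called by edgeR, DESeq2 or limma voom. At an unadjusted p under 0.05 edgeR's quasi-likelihood test had 1 Hox gene, Hoxc4 (−1.16 ± 0.43 on the log2 scale, male against female, adjusted p = 1), and 1 other, Hhex (−0.72 ± 0.33, adjusted p = 1). Hoxc4 was lower in the male library in 5 of 5 tissues with a count, most of all in stomach (115 and 21 counts). Spinal cord had 235 and 194 counts and parotid 5 and 3, and hippocampus and pancreas had only 1 and 0 each.

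Tags on the reverse strand accompanied the Hox genes in spinal cord. Codes 11 to 16, read here as the reverse strand, held 499 counts of Hox genes beside 3687 sense counts (11.9%, exact binomial 95% interval 10.95 to 12.9). The share was 14.7% for the other homeobox genes and 5.75% for all genes. Within spinal cord, however, Hox genes had 226 and 227 reverse counts, 12.7% and 12.6% of their counts in the female and male library, against 11.98% and 10.8% over all genes. In spinal cord, where most of their counts lie, the share of Hox genes was thus near that of all genes. In stomach it was 5.68% (interval 3.21 to 9.20) and 12.6% (7.51 to 19.4), against 3.66% and 4.27% over all genes. The share of the other homeobox genes was above that of all genes in every library, with 17.5% and 19.0% in spinal cord. In both stomach libraries, however, its interval (3.58 to 7.18 and 3.48 to 6.76) took in the share of all genes. Few genes gave much of it. Of its 221 and 234 reverse counts in hippocampus, Zeb2 held 101 and 106 and Zhx2 held 35 and 33. Hoxd8 had 58 and 45 reverse counts in spinal cord, Hoxc8 24 and 22, Hoxb8 21 and 27, Hoxa7 23 and 13, and Hoxc4 15 and 15.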

How the data were processed

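Raw counts of 20-base tags, as deposited by the authors in 1 table per library, were used without change; per the labels, cDNA was cut with DpnII, captured with MmeI and sequenced on microbeads. The tables pair a tag with a count, a UniGene cluster, a class code and a title. The sources used here do not give the legend of the codes, the aligner, or the genome and UniGene builds, and reading codes 1 to 4 as sense is an assumption. Symbols of 81 members came from an accession matched to RefSeq (GRCm38.p6), those of 16 from the title, and 1 has none.

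Counts were summed per cluster. In edgeR 4.0.16 (R 4.3.3), with TMM scaling and filterByExpr by tissue, quasi-likelihood F tests were fitted to 14 libraries with terms for tissue and sex (6 residual degrees of freedom). DESeq2 1.42.0, limma voom (limma 3.58.1), other scalings, filters, tag choices and leaving out each library were alternatives, some chosen after seeing the data: leaving out tags with 8 or more equal bases in a row, and TMM-scaled sums. No 2 libraries of a tissue agreed within sampling noise (chi-square per degree of freedom 2.41 to 67.7). The fit was tested on simulated data with known changes. Tables were made in Python 3.11.15 (numpy 2.4.6, pandas 2.3.3, scipy 1.17.1), figures in matplotlib 3.10.9.

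Members, lists and the rule for named genes were chosen with earlier results of these data known. Named in full were the 10 Hox genes highest in spinal cord, Hox genes of at least 2 CPM in another tissue or else the 2 highest, and, of other called genes, up to 6 higher and 3 lower per tissue and up to 8 per direction in the pairs. Other members named were chosen after their values were seen. Some members and tags are not reported here by name.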

Additional observations from a re-analysis of the deposited data

Results flagged for a closer look

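Tags outside the summed classes gave a signal in a few members. For Lbx1, a gene of dorsal spinal interneurons, tags of the reverse strand had 11 counts in the female and 13 in the male spinal cord library, where the sense tags had 3 and 4. For Hoxc8 the reverse tags had 24 and 22 counts in spinal cord, beside 20 and 11 sense counts. For Prrxl1, a gene of sensory neurons and their spinal targets, tags of codes 21 to 26 had 70 and 64 counts in spinal cord, where its sense tags had 0 and 2. For Zfhx2 tags of codes 5 and 6 had 17 and 20 counts in hippocampus (9 and 12 sense counts) and 20 and 24 in spinal cord (12 and 14 sense counts). Each lay above the limit that a count of 0 allows in both libraries of the tissue. What codes 5, 6 and 21 to 26 stand for is not given in the sources used here.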

How the results depend on the processing

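Of the values of single called genes under 25 alternatives, 2923 kept their direction and call, the others kept the direction without the call and 0 reversed. Genes that were not called were not followed in this count. Counts of called homeobox genes moved as follows. With limma voom they were 33 in place of 8 in bone marrow, 43 in place of 13 in hippocampus, 31 in place of 9 in liver, 23 in place of 2 in pancreas, 21 in place of 9 in parotid and 25 in place of 4 in pancreas against stomach. With DESeq2 they were 21 in hippocampus, 20 in place of 33 in spinal cord and 15 in place of 29 in spinal cord against hippocampus, and 13 Hox genes in place of 22 in each of the last 2 comparisons, where 8 Hox genes had no adjusted p against hippocampus, and 6 in place of 10 against each tissue. With tags of code 1 only, which left 15 Hox genes in the fit, they were 8 in hippocampus (7 in place of 12 others higher), 4 in liver, 0 in pancreas, 4 in parotid, 20 in spinal cord, 18 in spinal cord against hippocampus (13 Hox), 2 in pancreas against stomach and 6 Hox genes against each tissue. With library totals they were 8 in pancreas, 29 in pancreas against stomach and 19 Hox genes against each tissue. Leaving out 1 library gave 5 to 11 in bone marrow, 11 to 15 in hippocampus (11 to 13 others higher), 4 to 10 in liver, 1 to 5 in pancreas, 8 to 13 in parotid, 29 to 37 in spinal cord (21 to 25 Hox), 19 to 27 in stomach, 11 to 34 in spinal cord against hippocampus (10 to 25 Hox), 3 to 9 in pancreas against stomach, 4 to 14 Hox genes against each tissue and 0 between the sexes. A lone library was then assumed to vary like the other tissues. The cause of these shifts was not tested. The summed Hox level of spinal cord, 753 CPM, was 489 CPM of all counts, 308 with TMM scaling, 516 with code 1, 653 with the most abundant tag of each gene and 716 without tags of 8 or more equal bases in a row. The labels give no replicate numbers, and the sex term pairs the libraries across tissues. Without it the counts were 12 in place of 13 in hippocampus (11 in place of 12 others higher), 8 in place of 9 in liver, 30 in place of 29 in spinal cord against hippocampus and 11 in place of 10 Hox genes against each tissue, and the rest were equal. Low counts limit the 8 Hox and 39 other members that were not tested, and a gene at 0 is known only to within 3 counts.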
